A study of Mus musculus with 2 samples.

Results

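The genes described here make sterols and fatty acids, switch that synthesis on or off, or carry cholesterol out of the lysosome. They were chosen by name: 34 genes were listed, and every probe set annotated with 1 of these symbols and no other gene was taken. Of the 34 genes, 32 had at least 1 such probe set (62 probe sets in all), out of 12393 genes measured that way on the arrays. Insig1, which encodes a sterol-sensing anchor protein, and Acat2, the cytosolic thiolase at the entry of the mevalonate pathway, had none and were not analysed here.

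The cells were E14tg2a, an established mouse embryonic stem cell line. One array came from clone 4 of cells stably transfected with the plasmid shDAB2-285, which encodes a short hairpin RNA against Dab2, and 1 array from clone 9 of cells carrying the vector control plasmid. Both clones grew in the same medium, GMEM with 10% fetal bovine serum, L-glutamine, 1000 U/ml of the self-renewal cytokine LIF, penicillin and streptomycin. Serum brings lipoprotein cholesterol and fatty acids to the cells. Each group is therefore 1 clone and 1 array, an Affymetrix mouse 430A chip, with a single value per probe set, and what belongs to the hairpin, to the clone or to the culture cannot be told apart.

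Cells build cholesterol from acetyl-CoA through mevalonate, farnesyl diphosphate, squalene and lanosterol. The transcription factors SREBP1 and SREBP2 (genes Srebf1 and Srebf2) switch on the enzymes of this route and of fatty acid synthesis. They are escorted from the endoplasmic reticulum by SCAP when sterols are scarce and are held there by the INSIG proteins when sterols are plentiful, so that in many cells these enzyme genes move together. Dab2 encodes an endocytic adaptor known to sort receptors of the LDL receptor family, the route by which cells take up lipoprotein cholesterol.

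The authors' values come from RMA, which subtracts background, gives the arrays a common distribution and merges the probes of a probe set. They are on the log2 scale, so a difference of 1 is a doubling. Pairs of values give the shDAB2 clone first, and every difference is the shDAB2 clone minus the vector clone. A gene was read from its brightest probe set, the one with the highest mean over both arrays, and the further probe sets of each member are given beside it. The floor was set at 6.62, the median over every probe-set value, and a gene passed it when either array reached it. Of the 32 measured members 31 were above it. Npc1 and Acaca passed only through the vector array, and Hsd17b7 was below it. A single array per group allows no test across samples, and the spread between cultures is unknown. The only repeat is between probe sets of the same gene: over 2502 genes with a pair of them above the floor, the SD of 1 probe set's difference was 0.11. This probe-set SD covers probe noise and transcript variants, not cultures.

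The hairpin's own target was dim, and the stem cell markers were present in both clones. The brightest of 3 Dab2 probe sets read 6.33 in the shDAB2 clone against 6.64 with the vector, a difference of -0.31, and the others differed by -0.05 and -0.01 below the floor. All 8 embryonic stem cell markers checked, among them Pou5f1 and Nanog, were above the floor on both arrays. The markers went both ways, from -0.24 (Esrrb) and -0.17 (Sox2) to 0.17 (Zfp42) and 0.21 (Utf1). Their summed linear signal, to which the Dppa5a probe set gave the largest part, was 0.993 times as high in the shDAB2 clone as in the vector clone. Of 14 markers of primitive and visceral endoderm, a lipoprotein-secreting tissue, 3 passed the floor. Hnf4a and Ttr were 0.09 higher each, and Lrp2, a receptor of the LDL receptor family, read 7.32 and 7.65, a difference of -0.33. The summed ratio of 0.984 is made up mostly of values below the floor. Gata4, Gata6, Sox17, Afp, Apoa1 and Apob did not pass it.

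Sterol and fatty acid genes were split in direction. Of the 31 members above the floor 13 were higher and 18 lower in the shDAB2 clone. Over all 7269 genes that passed the floor, 50.0% were higher, 49.3% lower and 48 genes equal. The median member difference was -0.04, against a median of 0.0006 over all genes, and the SD of the members' differences, 0.22, was that of all genes, 0.22. Scd2 was the 1 member at least 1.5-fold lower, a size reached by 1.62% of all genes, and 0 members were at least 1.5-fold higher, against 0.578%. No member reached 2-fold, which 0.0275% of all genes did as higher and 0.179% as lower. At a log2 difference of 0.32 the counts were 1 lower (Scd2) against 6.07% and 1 higher (Idi1) against 4.91%. A difference of at least 2 probe-set SD, 0.21, was reached by 7 of the 31 members and by 24.4% of all genes, and 15 members differed by under 1 probe-set SD, as did 48.8% of all genes. The members' counts were thus near the background, and what follows describes single members.

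**Figure D1:**
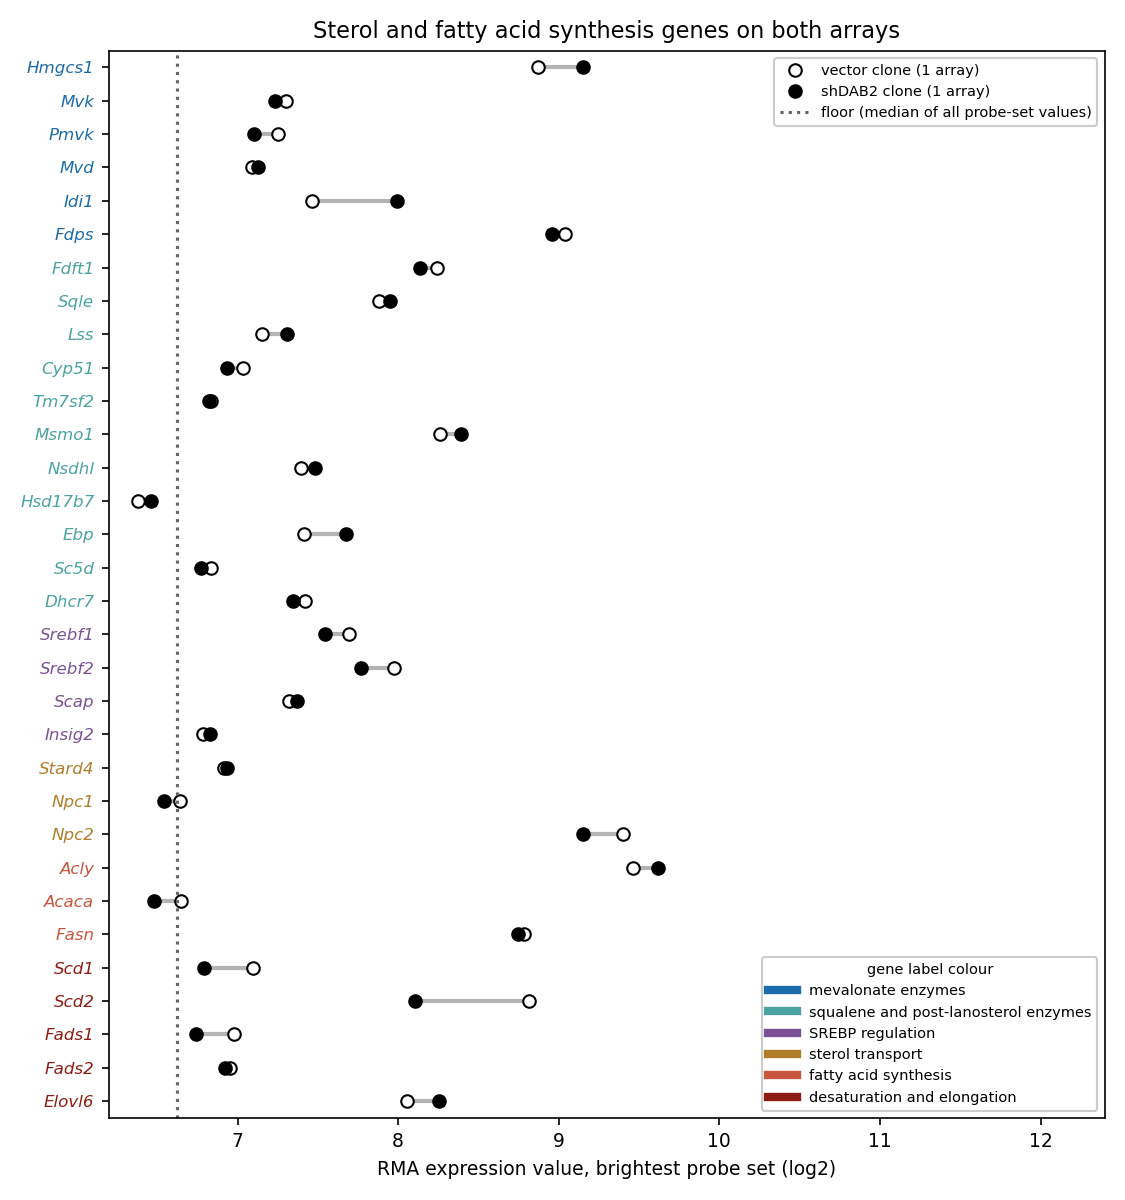
RMA expression values (log2) of the brightest probe set of each of the 32 measured members in the vector clone (open) and the shDAB2 clone (filled), 1 array each, with gene names coloured by role and the dotted line at the floor of 6.62. The pairs lie close together except Scd2, which is lower in the shDAB2 clone, and Idi1, which is higher; positions of different genes cannot be compared, since probes differ in brightness.

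Among the mevalonate enzymes, Idi1 stood apart. This gene encodes isopentenyl-diphosphate isomerase, which interconverts the pathway's 5-carbon units. Its brightest probe set gave 7.99 in the shDAB2 clone against 7.46 with the vector, a difference of 0.53 or 1.44-fold higher. The other probe set gave 6.88 and 6.38, a difference of 0.50, and was above the floor in the shDAB2 clone only. Both Idi1 probe sets thus gave nearly the same size, 4.99 and 4.72 probe-set SD. Among 7269 genes above the floor Idi1 ranked 69 from the highest, and 1.76% of the 2502 genes with a pair of probe sets above the floor were higher by at least 0.32 on both.

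Hmgcs1, the cytosolic HMG-CoA synthase that commits acetyl units to the pathway, was not settled in direction. Its brightest probe set gave 9.15 in the shDAB2 clone against 8.87 with the vector, a difference of 0.28. The second read 8.68 and 8.89 and went the other way, by -0.21. The third differed by 0.28 and the fourth by 0.08. So 3 of the 4 probe sets were higher and 1 lower, and their range of 0.49 was the widest between probe sets of any member. The second one carries the _x_at suffix, which Affymetrix gives to probe sets whose probes can also match other transcripts. Some probe sets of Fdft1 and Acly carry it too, among them the second of Fdft1 and the third of Acly. Whether it bears on any of these differences was not tested.

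The other mevalonate enzymes differed by less than 2 probe-set SD. Mevalonate kinase (Mvk) read 7.23 in the shDAB2 clone against 7.30 with the vector, a difference of -0.07, with -0.01 on its other probe set. Phosphomevalonate kinase (Pmvk) read 7.11 and 7.25, a difference of -0.14 on its only probe set. The next enzyme, mevalonate diphosphate decarboxylase (Mvd), read 7.13 and 7.09, with differences of 0.04 and 0.07. Farnesyl diphosphate synthase (Fdps), which joins those units into the precursor of sterols and of protein prenyl groups, read 8.96 and 9.04, a difference of -0.08 repeated at -0.08 on a probe set below the floor. Of the 6 measured mevalonate genes 3 were higher and 3 lower, and the median was -0.01. Idi1 was therefore higher beside immediate neighbours in the pathway, Mvd and Fdps, that differed by less than 0.11, the probe-set SD.

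Promoter sequences are shown for the members that differed by at least 2 probe-set SD and had an entry in the RefSeq table of GRCm38.p6: Hmgcs1, Idi1, Ebp and Npc2. Scd1, Scd2 and Fads1, the remaining members of that size, had no entry. Each is the 250 bases before the annotated start, 5′ to 3′ on the gene's strand. The Hmgcs1 window is chr13:119690101-119690350 on the plus strand, that of Idi1 chr13:8885356-8885605 on the plus strand, that of Ebp chrX:8193513-8193762 on the minus strand and that of Npc2 chr12:84773113-84773362 on the minus strand. Capitals mark matches to the sterol regulatory element TCACNCCAC bound by SREBP and to CCAAT, the box bound by the SREBP partner NF-Y, both read on either strand.
Hmgcs1: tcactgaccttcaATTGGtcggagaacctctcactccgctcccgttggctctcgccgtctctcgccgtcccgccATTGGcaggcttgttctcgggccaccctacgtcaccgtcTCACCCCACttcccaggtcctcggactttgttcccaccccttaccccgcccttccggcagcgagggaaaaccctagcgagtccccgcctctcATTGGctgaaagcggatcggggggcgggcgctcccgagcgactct
Idi1: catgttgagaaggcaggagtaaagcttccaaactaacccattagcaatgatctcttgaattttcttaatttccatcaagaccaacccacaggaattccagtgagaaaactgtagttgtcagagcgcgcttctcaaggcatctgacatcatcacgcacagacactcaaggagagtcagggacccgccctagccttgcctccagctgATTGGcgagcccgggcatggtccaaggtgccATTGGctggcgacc
Ebp: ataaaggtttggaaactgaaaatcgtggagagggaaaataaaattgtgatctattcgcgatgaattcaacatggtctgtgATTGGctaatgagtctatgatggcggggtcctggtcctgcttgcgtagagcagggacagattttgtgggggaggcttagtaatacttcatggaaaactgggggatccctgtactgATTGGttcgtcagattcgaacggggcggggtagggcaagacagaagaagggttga
Npc2: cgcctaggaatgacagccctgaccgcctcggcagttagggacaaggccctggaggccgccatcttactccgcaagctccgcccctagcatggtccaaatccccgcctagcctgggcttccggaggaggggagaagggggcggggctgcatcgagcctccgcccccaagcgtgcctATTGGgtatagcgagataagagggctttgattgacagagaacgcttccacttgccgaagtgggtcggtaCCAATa

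Among the members with a window, a match to the sterol element TCACNCCAC occurred in Hmgcs1 alone. It read TCACCCCAC, from base -137 to -129 relative to the start, and overlapped none of the other motifs searched. Other spellings of the element were not searched, and the 8 members without a window could not be. Searched over the full window of 300 bases (250 before and 50 after the start), 26 of the 34 listed genes had 34 windows. The element was in 1 of these 34 windows and in 1.24% of all 32851 windows in the table. A CCAAT box was in 22 of the 34 and in 37.4% of all windows. Matches to GGGCGG, the box bound by SP1, were in 26 of the 34 against 35.7%, and to the E-box CACGTG in 6 of the 34 against 7.15%. The windows of Idi1, Ebp and Npc2 each held 2 CCAAT boxes in the printed bases and that of Hmgcs1 held 3, so genes that were higher and a gene that was lower in the shDAB2 clone both carried them. Such matches describe letters only and show no binding.

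**Figure D2:**
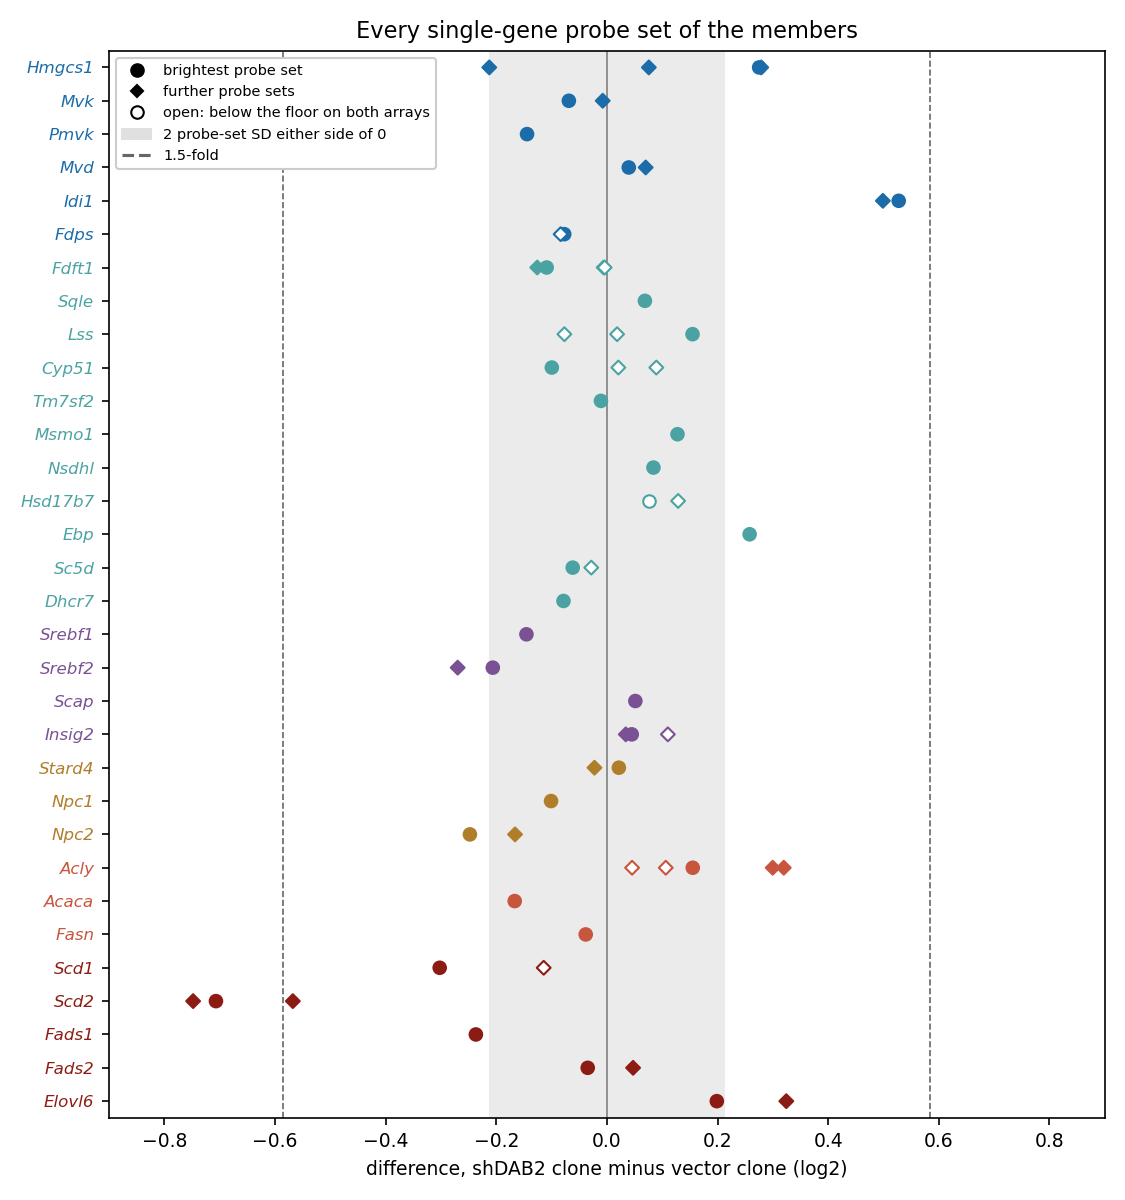
Difference between the shDAB2 clone and the vector clone (log2) for each of the 62 member probe sets: circles are brightest probe sets, diamonds further ones, open symbols lie below the floor on both arrays, the grey band spans 2 probe-set SD (0.21) either side of 0 and dashed lines mark 1.5-fold. The Scd2 probe sets sit together between -0.75 and -0.57, both Idi1 probe sets near 0.5, and those of Hmgcs1 spread from -0.21 to 0.28.

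The enzymes from squalene to cholesterol showed small differences in both directions. Of the 11 genes 10 were above the floor, 5 higher and 5 lower around a median of 0.03. The largest difference was that of Ebp, the sterol isomerase that moves the ring double bond. Ebp read 7.67 in the shDAB2 clone against 7.42 with the vector, 0.26 higher on its only probe set. Msmo1, which takes part in removing methyl groups from the ring, read 8.39 and 8.26, a difference of 0.13. Nsdhl, which acts after it, read 7.48 and 7.40, a difference of 0.08. Both followed Ebp in sign but lay inside 2 probe-set SD.

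At the entry to this branch, squalene synthase (Fdft1) read 8.13 in the shDAB2 clone against 8.24 with the vector, a difference of -0.11 with -0.13 on its second probe set. Squalene epoxidase (Sqle), a rate-controlling enzyme, read 7.95 and 7.88, a difference of 0.07. Lanosterol synthase (Lss), which closes the sterol rings, read 7.31 and 7.15, a difference of 0.15, but its further probe sets, below the floor, gave 0.02 and -0.08. The lanosterol demethylase Cyp51 read 6.94 and 7.04, a difference of -0.10, and its dim probe sets gave 0.09 and 0.02. These genes act in a row and carried no common sign.

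The remaining enzymes of this branch differed by less than 1 probe-set SD on the probe set taken for the gene. Tm7sf2, a sterol reductase, read 6.82 in the shDAB2 clone against 6.83 with the vector, a difference of -0.01. Sc5d, the sterol C5-desaturase, read 6.77 and 6.83, a difference of -0.06, with -0.03 on a probe set below the floor. Dhcr7, which completes cholesterol, read 7.34 and 7.42, a difference of -0.08 on its only probe set. Hsd17b7, the keto-sterol reductase, read 6.46 and 6.38 on the probe set taken for the gene and 6.46 and 6.34 on the other, below the floor on both arrays. Because RMA compresses differences near the dim end of an array, small values there do not show that the transcripts were equal.

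Of the genes that control SREBP activity, Srebf2 was lower on each of its probe sets. Srebf2 encodes SREBP2, the form that acts mainly on cholesterol synthesis. It read 7.77 in the shDAB2 clone against 7.97 with the vector, a difference of -0.21, and 7.06 and 7.33 on the second probe set, a difference of -0.27. Srebf1, whose product acts mainly on fatty acid genes, read 7.55 and 7.69, a difference of -0.15 on its only probe set. Both SREBP genes thus read lower in the shDAB2 clone, by less than 2 probe-set SD on their brightest probe sets. The 16 sterol synthesis enzymes above the floor were split, 8 higher and 8 lower.

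The escort gene Scap read 7.37 in the shDAB2 clone against 7.32 with the vector, a difference of 0.05. Insig2, the retention factor, read 6.83 and 6.79, and its 3 probe sets were 0.04, 0.03 and 0.11 higher, the last of them below the floor. Over the 4 measured regulators 2 were higher and 2 lower, and the median was -0.05. Messenger RNA of these genes does not show how much SREBP was cleaved, which is where the pathway is mainly controlled.

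The sterol transport genes were lower or near 0. Npc2 encodes the soluble lysosomal protein that hands cholesterol to NPC1 for export. It read 9.15 in the shDAB2 clone against 9.40 with the vector, a difference of -0.25, and 8.81 and 8.98 on its second probe set, a difference of -0.17. Its membrane partner Npc1 read 6.54 and 6.64, a difference of -0.10 that spans the floor. Stard4, a cytosolic sterol carrier, read 6.94 and 6.91, with differences of 0.02 and -0.02 on its probe sets, so it had no settled sign.

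In fatty acid synthesis, Acly was higher on each of its 3 probe sets above the floor, of 5 in all. ATP-citrate lyase makes the cytosolic acetyl-CoA that feeds both fatty acid and sterol synthesis. The brightest probe set gave 9.62 in the shDAB2 clone against 9.46 with the vector, a difference of 0.16. The next read 8.88 and 8.58, a difference of 0.30, and the third 8.56 and 8.24, a difference of 0.32. The remaining probe sets, below the floor, gave 0.11 and 0.05. Above the floor the direction was the same, and the size ranged from 0.16 to 0.32.

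The enzymes that use this acetyl-CoA did not follow it. Acaca, acetyl-CoA carboxylase 1, which makes malonyl-CoA, read 6.48 in the shDAB2 clone against 6.65 with the vector, a difference of -0.17 that spans the floor. Fasn, fatty acid synthase, which builds palmitate, read 8.75 and 8.79, a difference of -0.04. Each was measured by 1 probe set.

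Scd2 had the largest difference of all members, on 3 probe sets. Stearoyl-CoA desaturases put the first double bond into saturated fatty acids, and Scd2 is the form known from embryo and brain. The brightest probe set gave 8.11 in the shDAB2 clone against 8.81 with the vector, a difference of -0.71 or 1.63-fold lower. The second read 7.07 and 7.82, a difference of -0.75 or 1.68-fold lower. The third read 6.46 and 7.03, a difference of -0.57 or 1.48-fold lower, and was below the floor in the shDAB2 clone. All 3 probe sets were lower by 5.37 to 7.07 probe-set SD. Scd2 ranked 63 from the lowest of 7269 genes, and 1.04% of the 2502 genes with a pair of probe sets above the floor were at least 1.5-fold lower on both. Of 789 genes with 3 probe sets above the floor, 3.17% were lower by at least 0.32 on all 3. In a culture, fewer cells that carry Scd2 and less Scd2 RNA per cell cannot be told apart.

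Its relatives were lower by less. Scd1, the main form of liver and fat, read 6.79 in the shDAB2 clone against 7.09 with the vector, a difference of -0.30, and 6.25 and 6.37 on a probe set below the floor, a difference of -0.11. Scd3 is not among the members and was named after its value was seen. It read 6.62 and 6.72, a difference of -0.10 close to the floor, with -0.09 on a dimmer probe set. The Scd genes are similar in sequence and Scd1, Scd2 and Scd3 lie on chromosome 19. Whether the Scd1 probes also bound Scd2 RNA was not tested, so the lower Scd1 value is uncertain.

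Fads1 and Fads2 encode the desaturases that make polyunsaturated fatty acids such as arachidonic acid, and no protein-coding gene starts between them on chromosome 19. Fads1 read 6.74 in the shDAB2 clone against 6.98 with the vector, a difference of -0.24 on its only probe set. Fads2 read 6.92 and 6.95, a difference of -0.03, and 6.72 and 6.67 on its other probe set, a difference of 0.05. The pair thus differed in size, with only Fads1 beyond 2 probe-set SD.

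Elovl6, the elongase that lengthens palmitate to stearate, the substrate of the Scd enzymes, was higher. It read 8.25 in the shDAB2 clone against 8.05 with the vector, a difference of 0.20, and 7.67 and 7.34 on its second probe set, a difference of 0.32. Among the 5 desaturation and elongation genes 4 were lower and 1 higher, with a median of -0.24. Elovl6 and Scd2, which act in sequence, therefore differed in opposite directions on these arrays.

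**Figure D3:**
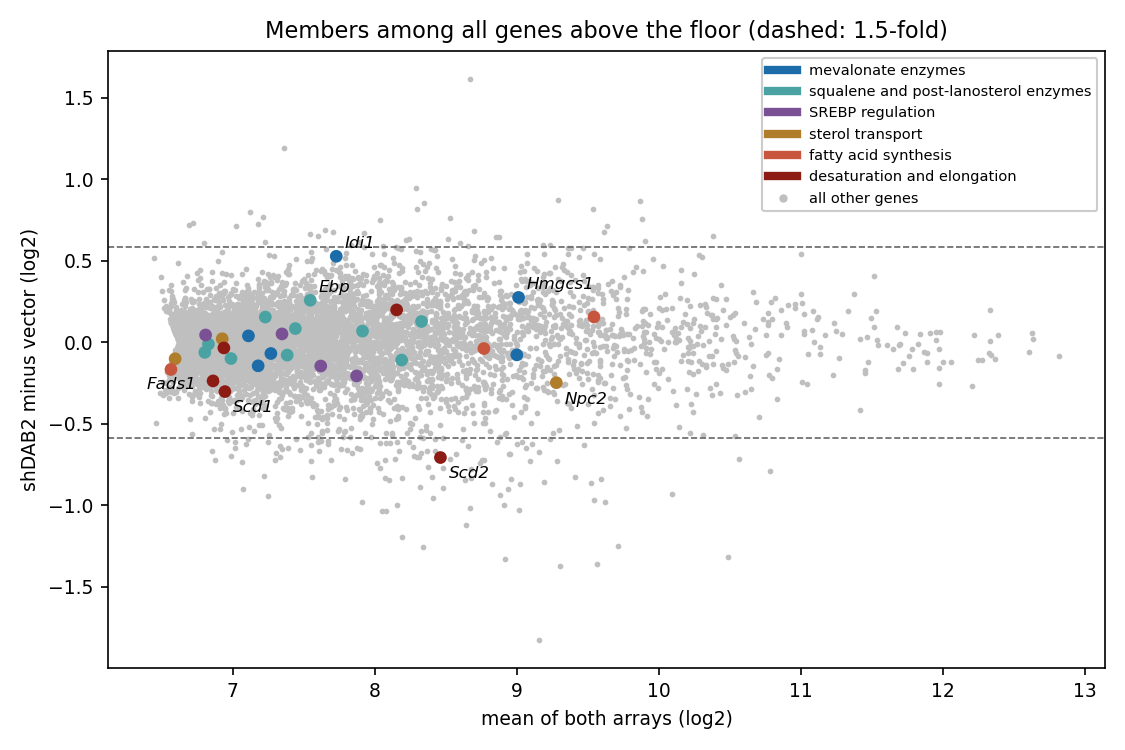
Difference between the clones (log2) against the mean of both arrays (log2) for the 7269 genes above the floor (grey) and the 31 members above it (coloured by role); members beyond 2 probe-set SD are named and dashed lines mark 1.5-fold. Scd2 at -0.71 is the member outside the dashed lines and Idi1 at 0.53 is just inside. Both lie within the spread of all genes, Scd2 at rank 63 from the lowest and Idi1 at rank 69 from the highest.

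Over the 13 members with more than 1 probe set above the floor, 10 had the same sign on all of them: Mvk, Mvd, Idi1, Fdft1, Srebf2, Insig2, Npc2, Acly, Scd2 and Elovl6. The sign was mixed for Hmgcs1, Stard4 and Fads2, of which Stard4 and Fads2 stayed within 0.05 of 0. The median range between probe sets of a member was 0.06. Among all 2502 genes with a pair above the floor 24.3% had opposite signs.

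Further genes of the pathways were taken from 4 lists of names. Of 111 genes listed, 85 had a single-gene probe set and 58 were above the floor, 28 of them higher and 30 lower. Of the 58, 0 were at least 1.5-fold higher and 3 were at least 1.5-fold lower (Apoe, Lamp2 and Fabp3), against the 0.578% and 1.62% of all genes given above.

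Genes of sterol uptake, efflux and storage were lower in 13 of 14 cases, with a median of -0.11 (49.3% of all genes were lower). Apoe, the lipoprotein that carries cholesterol between cells, read 9.63 in the shDAB2 clone against 10.56 with the vector, a difference of -0.93 or 1.90-fold lower on its only probe set. Abca1, the pump that loads cholesterol onto such particles, read 6.89 and 7.23, a difference of -0.35, with -0.17 and -0.04 on dim probe sets. Lamp2, a lysosomal membrane protein that binds cholesterol, read 7.06 and 7.71, a difference of -0.65, with -0.72, -0.17 and -0.33 on its further probe sets. The lipoprotein receptor gene Lrp1 differed by -0.15, and Osbpl11, named after its value was seen, was the single higher gene at 0.06. Apart from Apoe, Lamp2 and Abca1, the genes of this list differed by less than 2 probe-set SD on their brightest probe sets. Osbpl1a, named after its value was seen, differed by -0.15 there and by -0.23 on its second probe set.

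Genes of SREBP processing and sterol sensing were higher in 10 of 15 cases, with a median of 0.09 (50.0% of all genes were higher). Tmem97, a sterol-responsive membrane protein known to bind NPC1, read 7.95 in the shDAB2 clone against 7.51 with the vector, 0.44 or 1.36-fold higher on its only probe set. The NF-Y subunit genes Nfyc and Nfyb were 0.23 and 0.21 higher, the second with 0.29 on its other probe set. The third subunit gene, Nfya, named after its value was seen, was lower at -0.15, with -0.08 and 0.04 on its further probe sets, so the NF-Y genes went both ways. Mbtps1, the site-1 protease that cleaves SREBP, was lower at -0.22, with -0.45 and -0.01 on its further probe sets. Of 3 other sterol branch enzymes above the floor, Ggps1, which makes the geranylgeranyl group, was 0.18 higher on its brightest probe set, but its further probe sets, below the floor, gave 0.01, -0.06 and -0.05. Dhdds and Nus1, subunits of the enzyme for dolichol, were 0.04 and 0.03 higher, with 0.08 and 0.12 on further probe sets of Dhdds and 0.13 and 0.08 on those of Nus1.

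Other genes of fatty acid and glycerolipid synthesis were mixed, 14 higher and 12 lower around a median of 0.02. Fabp3, a fatty acid binding protein, read 8.41 in the shDAB2 clone against 9.35 with the vector, a difference of -0.94 or 1.92-fold lower on its only probe set. Agpat3, an acyltransferase of phospholipid synthesis, read 6.91 and 7.36, a difference of -0.45. Hsd17b12, the reductase that works with the elongases, was 0.24 and 0.29 higher on its probe sets, and the acyl-CoA synthetase gene Acsl5 was 0.22 higher. Other elongation genes, named after their values were seen, went both ways. The elongase gene Elovl5 differed by -0.15 and -0.37 on its probe sets. Elovl1, the elongase of very long chains, differed by -0.10, with -0.28 and -0.04 on further probe sets. The dehydratase gene Hacd3 differed by -0.12, with 0.01 on both further probe sets, and the reductase gene Tecr was 0.17 and 0.13 higher. Apoe and Fabp3 rest on 1 probe set each and have no repeat.

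**Figure D4:**
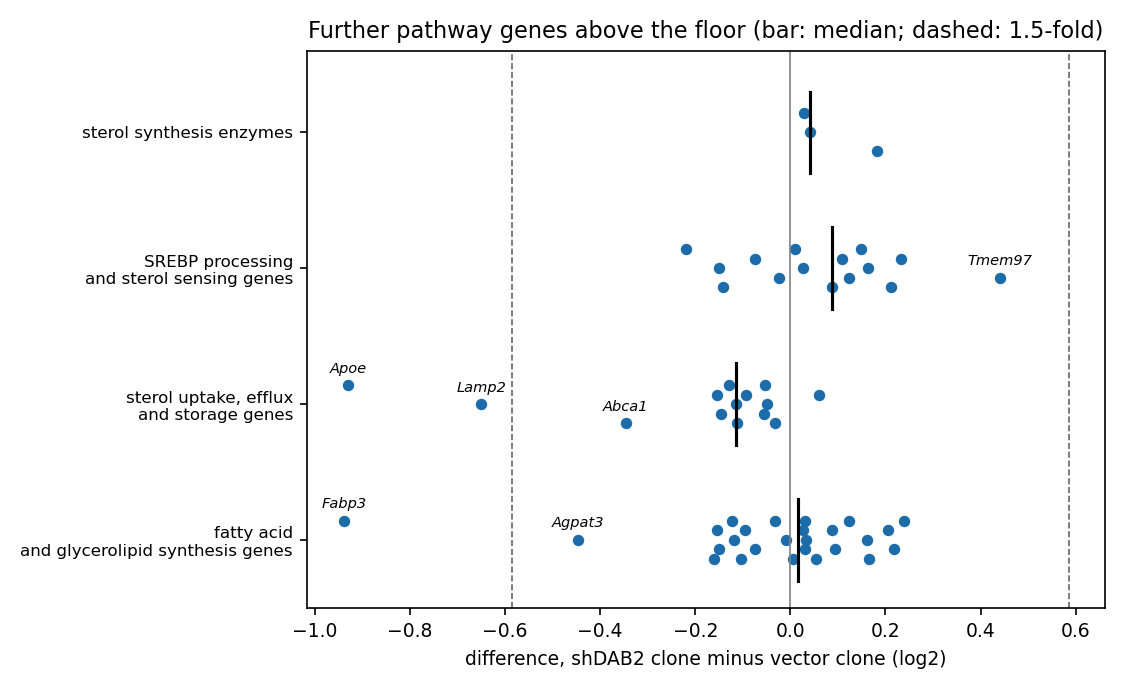
Difference between the clones (log2) for the further pathway genes above the floor in 4 lists, with a black bar at each list's median, dashed lines at 1.5-fold and names for genes beyond 0.32 either way. In the uptake, efflux and storage list 13 of 14 points lie below 0, led by Apoe at -0.93, while the fatty acid list spreads to both sides around a median of 0.02.

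Markers of other cell types were mostly dim. Beside the lower Scd2, Apoe and Fabp3 values, the trophectoderm marker Krt7 also differed, by -0.82, and the endoderm marker Lrp2 by -0.33. The other endoderm markers above the floor, Hnf4a and Ttr, went the other way and were 0.09 higher each. The other 4 of 5 trophectoderm markers, Cdx2, Eomes, Elf5 and Gata3, were below the floor on both arrays. They differed by -0.03, 0.11, 0.07 and -0.02. The list's summed linear signal was 539 with the vector and 461 in the shDAB2 clone, a drop carried by Krt7 alone. Of 7 fibroblast markers 1 (Dcn, at 6.62 and 6.55) reached the floor and Col1a1 and Col1a2 did not, with summed signals of 592 with the vector and 580 in the shDAB2 clone. Of 5 adipocyte or liver markers 4 were measured and 0 reached the floor, with summed signals of 305 with the vector and 309 in the shDAB2 clone. The part of such cell types in the lower values was not tested.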

How the data were processed

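Total RNA of each clone (10 µg) was labelled as biotinylated cRNA and hybridised, per the labels' protocols. The authors deposited a log2 value for each probe set on each array, made with RMA per the submitters' processing notes. The RMA version, probe set definitions, arrays normalized together and log base remain not given in the sources used here; log2 was assumed from RMA's usual output and from values of 5.65 to 12.86. Genome build and detection calls were likewise not stated, and 0 control probe sets (prefix AFFX) are in the table.

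Of 22626 probe sets, 20380 had 1 gene in the platform annotation, 691 several and 1555 none; 20351 matched a RefSeq gene of GRCm38.p6, which changed 0 symbols. Differences, counts and medians were computed in Python 3.11.15 (pandas 2.3.3) and checked on simulated data; no p-value was computed. The members, the gene lists and the motifs were chosen with earlier results of these data known. Named genes are all measured members, Dab2, some of the markers, and the 4 largest differences above the floor of each further list. Any other measured gene named was chosen after its value was seen. The number of arrays limits the precision. Alternatives were cyclic loess (limma 3.58.1, R 4.3.3), median centring, other choices of probe sets, floor and size limit, and list means.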

Additional observations from a re-analysis of the deposited data

How the results depend on the processing

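Scd2, the 1 member at least 1.5-fold lower, ran from -0.75 to -0.67 under the alternatives run, and Idi1 ran from 0.50 to 0.53. Cyclic loess changed no array value by more than 0.02, so it could hardly turn a difference of that size. Of 157 alternative values of single members 148 stayed within 0.11 (1 probe-set SD) of the reported one. The other 9 did not, all from the choice of probe sets. On second brightest probe sets Hmgcs1 changed sign to -0.21, Cyp51 to 0.09 (below the floor), Stard4 to -0.02 and Fads2 to 0.05. A limit of 0.32 on the log2 scale gave by construction 1 member higher, and 357 genes higher and 441 lower over all genes. A 2-fold limit gave 0 members lower, and 2 genes higher and 13 lower over all genes. With the floor at the 75th percentile of probe-set values, 7.33, fewer genes were left, and 9 members were higher and 8 lower. The mevalonate median was then 0.28, the value of Hmgcs1, whose probe sets disagreed in sign. The sterol transport median was -0.25, that of Npc2 alone. The mean of the mevalonate genes was 0.092. With second brightest probe sets the desaturation and elongation median was -0.095. The median over all members ran from -0.05 to 0.05, so its sign has no meaning. Signal near the floor limits Npc1, Acaca, Hsd17b7, Scd1 and Fads1.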
